A study of Arabidopsis thaliana with 12 samples.

Results

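Whole-seedling transcripts of the Arabidopsis thaliana line gp1-2 were compared between seedlings exposed to volatiles of the bacterium GB03 and seedlings grown without bacteria. The comparison rests on 6 of the 12 libraries of the series, 3 with volatiles and 3 without, chosen by the genotype and treatment given in their labels. gp1-2 carries a T-DNA insertion (SAIL_209_D07) in the Col-0 background; it is 1 allele, and the labels name no locus, while the title of the series speaks of a stearoyl-ACP desaturase. Days of 16 h light and 8 h dark at 22 °C and medium with 1% sucrose were shared by all groups; seedlings were moved at 5 days to plates with a divider, and were harvested at 7 days after 2 days with or without GB03 on the other side. The remaining 6 libraries are Col-0 wild-type seedlings, 3 exposed in the same way and 3 without bacteria, and are used below to test whether a response in gp1-2 differed from that in wild type.

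GB03 is a soil Bacillus strain whose volatile compounds are known to promote the growth of Arabidopsis and to act on its photosynthesis, sugar sensing, iron uptake and sulphur metabolism. Stearoyl-ACP desaturases place the first double bond into fatty acids made in plastids, and mutants that lack the main enzyme are known for raised salicylic acid defence. Plants short of sulphate switch on transporters, enzymes of sulphate reduction and a set of small regulators, and seedlings that store pigment switch on the late enzymes of anthocyanin synthesis together.

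Total counts per library were 19583445, 21015618 and 25214934 in gp1-2 with volatiles and 17908408, 18339256 and 18725561 in gp1-2 controls, so every exposed library was deeper than every control, and an effect of depth cannot be told apart from treatment by setting libraries side by side. In a principal component analysis of these 6 libraries, the first component held 69.8% of the variance and put the exposed libraries at 36.6, 39.3 and 39.2 and the controls at -44.1, -43.9 and -27.0. Control replicate 3 therefore stood nearest to the exposed group. The desaturase gene SSI2 (AT2G43710) had 682, 698 and 551 CPM (the CPM unit, on library sizes scaled with TMM) with volatiles, against 586, 705 and 746 CPM in gp1-2 controls, with overlapping groups and no called difference (log2 fold change -0.08 ± 0.11, the error being the standard error of the fit here and below, edgeR adjusted p 0.622). Its transcript was not lost in gp1-2 and so does not check the label. Among 22 root marker genes, 3 passed the test with higher and 2 with lower levels after exposure (median log2 fold change -0.02). Of 10 shoot markers, 0 were called higher and 3 lower (median -0.11). Over all genes tested, 14.7% were called higher and 17.6% lower. The summed root markers ran from 289 to 336 CPM with volatiles, against 296 to 327 CPM in controls, and the summed shoot markers from 5687 to 6955 CPM with volatiles, against 7604 to 8139.6 CPM in controls. Without control replicate 2, 0 root markers were called lower, and without exposed replicate 2, 1 shoot marker was. RBCS1A and LHCB3, themselves photosynthesis genes, are 2 of those 10 shoot markers. RBCS1A made up most of the shoot sum, with means of 5400.5 of 6111 CPM with volatiles and 7062.5 of 7793 CPM in controls. The shoot sum therefore mainly follows that 1 gene. The part of organ composition in the results was not tested, and in whole seedlings fewer cells of a type and less RNA per cell cannot be told apart.

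Volatiles changed the levels of 6707 of the 20736 genes tested in gp1-2 (edgeR quasi-likelihood test, adjusted p under 0.05), 3050 higher and 3657 lower. These are 32.3% of the genes tested, 14.7% higher and 17.6% lower, and they are the background for the counts of gene lists given below. Most changes were small. The median log2 fold change was 0.55 among genes called higher and -0.57 among genes called lower; 602 genes rose and 626 fell by at least 1 on the log2 scale, but 156 rose and 87 fell by at least 2. The 2 groups did not overlap in CPM for 9799 genes (47.3%), 22.6% with exposed libraries above and 24.7% with exposed libraries below, and 6535 of the called genes were among them. In wild type, 30.1% of the genes tested were called, 14.8% higher and 15.3% lower. In the shoot markers and the 5 lists below for which edgeR called 0 members in 1 direction, DESeq2 and limma-voom called 0 there too, and by unadjusted p under 0.05 the count was 1 for the early stress factors and 0 for the others. The balance of directions depended on scaling, with 3657 higher and 3117 lower under upper-quartile normalization, and leaving out control replicate 2 brought the number of called genes down to 4893.

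**Figure D1:**
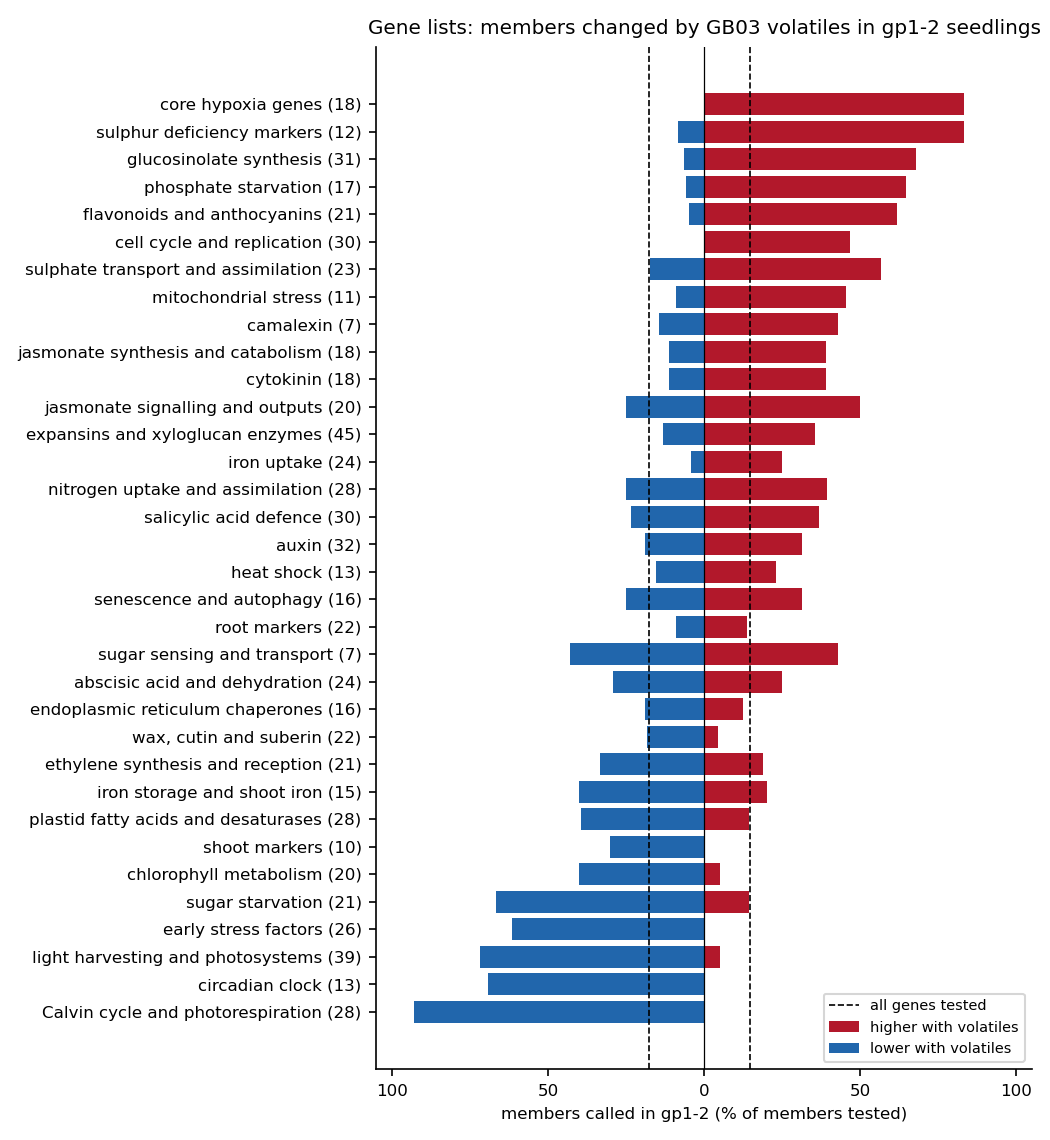
Share of the tested members of each gene list that were called higher (right) or lower (left) with GB03 volatiles in gp1-2 seedlings (edgeR adjusted p under 0.05), with the number of members tested in brackets. The dashed lines stand at 14.7% and 17.6%, the shares among all 20736 genes tested; 26 of 28 Calvin cycle and photorespiration genes were lower and 15 of 18 core hypoxia genes were higher.

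The 12 largest rises under the naming rule included 3 members of the flavonoid list and 2 sulphur-deficiency markers. They belonged to AT5G38910, ATSDI1 (AT5G48850), DIC3 (AT5G09470), LSU3 (AT3G49570), DFR (AT5G42800), AT1G80130, AT3G13433, AT5G63225, AT5G46960, GSTF12 (AT5G17220), JRG21 (AT3G55970) and UF3GT (AT5G54060), with log2 fold changes of 3.00 to 5.42. RefSeq describes AT5G38910 as a cupin-superfamily protein, and it had the largest rise under that rule. It was at 15.2, 10.1 and 10.5 CPM with volatiles, against 0.165, 0.387 and 0.265 CPM in gp1-2 controls (5.42 ± 0.36, edgeR adjusted p 8.1e-08). DIC3, a dicarboxylate carrier of the inner mitochondrial membrane, had 15.2, 18.9 and 16.4 CPM with volatiles, against 0.220, 0.221 and 1.27 CPM in controls. The highest control value of DIC3 was that of replicate 3, and its log2 fold change of 4.85 ± 0.33 was 6.21 without that library. AT3G13433 and AT5G63225 were counted at 0 in all 6 wild-type libraries, and AT5G46960 at 0 to 0.541 CPM. In gp1-2 they were at 8.67 to 11.1, 14.04 to 15.5 and 8.68 to 15.2 CPM with volatiles, against 0.719 to 1.43, 1.10 to 2.43 and 0.774 to 1.96 CPM in controls.

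The 12 largest falls under the naming rule had log2 fold changes of -4.96 to -2.57. They belonged to AT5G35777, FRO6 (AT5G49730), ORA47 (AT1G74930), FBA5 (AT4G26530), NAP (AT1G69490), NCED4 (AT4G19170), SIS (AT5G02020), GASA6 (AT1G74670), AT3G23880, SKOR (AT3G02850), FRO7 (AT5G49740) and AT4G39675. FBA5, described by RefSeq as an aldolase, had 38.8, 30.7 and 35.6 CPM with volatiles, against 374, 409 and 277 CPM in gp1-2 controls (-3.33 ± 0.14, edgeR adjusted p 1.9e-09). SKOR, a potassium channel that releases potassium into the xylem, had 3.07, 2.02 and 1.89 CPM with volatiles, against 17.1, 17.1 and 12.9 CPM in controls (-2.77 ± 0.18, edgeR adjusted p 6.2e-08). NCED4, a carotenoid-cleaving dioxygenase, had 3.32, 1.74 and 2.28 CPM with volatiles, against 25.5, 23.6 and 12.4 CPM in controls. Every exposed library lay below every control for FBA5, SKOR and NCED4. ORA47, an ERF-family transcription factor, had 0.891, 0.826 and 1.003 CPM with volatiles, against 24.97, 10.8 and 1.53 CPM in controls, and its fall of -3.76 ± 0.88 (edgeR adjusted p 0.0042) was not called by limma-voom (-2.98, adjusted p 0.0897). Without control replicate 1 it was -2.74.

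In absolute CPM, 2 of the 6 largest rises were members of the salicylic acid list and 5 of the 6 largest falls were members of the photosynthesis lists. PR1 (AT2G14610) rose most, at 3727, 3177 and 3189 CPM with volatiles, against 1362, 1402 and 1579 CPM in gp1-2 controls. It was followed by ABCG40 (AT1G15520), a plasma-membrane transporter of abscisic acid, by AT5G60390, described as an elongation factor, and by GSTF9 (AT2G30860), LOS2 (AT2G36530) (enolase) and BGL2 (AT3G57260). ABCG40 had 946, 1051 and 685 CPM with volatiles, against 155, 183 and 205 CPM in controls (2.30 ± 0.21, edgeR adjusted p 1.3e-06). The largest losses of CPM were those of RCA (AT2G39730), RBCS1A (AT1G67090), CA1 (AT3G01500), CAB1 (AT1G29930), LHB1B2 (AT2G34420) and RBCS3B (AT5G38410). CA1, a chloroplast carbonic anhydrase, had 614, 575 and 688 CPM with volatiles, against 2160.1, 2424 and 1922 CPM in controls (-1.79 ± 0.11, edgeR adjusted p 5.1e-08). The calls of AT5G60390, RBCS1A and CAB1 were weak: AT5G60390 lost its call without exposed replicate 1 (0.37) or control replicate 1 (0.36) or 2 (0.34). RBCS1A lost it without exposed replicate 1 (-0.34) or 2 (-0.34) or control replicate 3 (-0.36), and CAB1 lost it without any 1 of the 6 gp1-2 libraries; over all alternatives its value ran from -0.34 to -0.26.

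Anthocyanin genes rose in gp1-2 at the late steps of the pathway. Of 21 flavonoid genes tested, 13 were called higher and 1 lower, and the median log2 fold change was 0.39, beside -0.0027 over all genes tested. The 6 late genes rose by 2.63 to 3.77. DFR, the reductase that commits flavonoids to anthocyanin, had 62.6, 64.05 and 67.7 CPM with volatiles, against 4.08, 3.70 and 6.40 CPM in gp1-2 controls (3.77 ± 0.20, edgeR adjusted p 1.3e-08). LDOX (AT4G22880), the next enzyme, had 44.6, 41.02 and 41.99 CPM with volatiles, against 5.95, 5.20 and 6.14 CPM in controls (2.88 ± 0.14). UF3GT, a glycosyltransferase acting on anthocyanins, had 11.7, 12.8 and 15.6 CPM with volatiles, against 1.60, 1.44 and 1.96 CPM in controls (3.00 ± 0.17). Exposed and control libraries were far apart for all of these late genes. GSTF12, a glutathione transferase needed to bring anthocyanin into the vacuole, rose by 3.09 ± 0.16, AT4G14090 by 2.94 ± 0.13 and AT5MAT (AT3G29590), a malonyltransferase, by 2.63 ± 0.20.

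The early steps of the same pathway moved little. Of 9 genes from PAL1 to FLS1, 5 were called higher, with log2 fold changes of -0.06 to 0.70 over the 9. PAL1 (AT2G37040), which starts phenylpropanoid synthesis, had 412, 402 and 373 CPM with volatiles, against 376, 358 and 353 CPM in controls, and the groups overlapped (0.13 ± 0.09, edgeR adjusted p 0.296). C4H (AT2G30490), the following hydroxylase, rose by 0.49 ± 0.08 and TT7 (AT5G07990), the flavonoid 3'-hydroxylase, by 0.70 ± 0.09. Among the regulators, PAP1 (AT1G56650) and TT8 (AT4G09820), the MYB and bHLH partners that switch on the late genes, were low and rose: PAP1 had 1.93, 1.24 and 1.35 CPM with volatiles, against 0.496, 0.332 and 0.582 CPM in controls (1.65 ± 0.35, edgeR adjusted p 0.00219), and TT8 had 3.37, 3.62 and 2.43 CPM, against 2.04, 1.44 and 1.32 CPM (0.96 ± 0.22, edgeR adjusted p 0.00413). MYB12 (AT2G47460), a regulator of flavonol synthesis, was called lower (-0.91 ± 0.27, edgeR adjusted p 0.0169), which was lost without exposed replicate 3 (-0.79) or control replicate 1 (-0.63).

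The rise of 3 of the 6 late genes was called smaller in gp1-2 than in wild type. DFR rose by 3.77 in gp1-2 and 5.03 in wild type, and the interaction, which is the response in gp1-2 minus that in wild type, was -1.26 ± 0.30 (edgeR adjusted p 0.0385). LDOX had an interaction of -1.60 ± 0.21 (edgeR adjusted p 8.8e-04) and AT4G14090 of -1.23 ± 0.21 (edgeR adjusted p 0.00525). The interaction was called for 4 flavonoid genes (7 with the replicate block), including TT7 (-0.73 ± 0.12), all with the smaller rise in gp1-2, where 1.32% of all genes tested had a called interaction of that sign. The DFR interaction was lost in 11 of 19 alternatives, with values from -1.50 to -0.97.

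The stretch of 250 bases before the annotated start was read for the genes of each list from the RefSeq assembly TAIR10.1 to show what sequence lies before members that moved together. The G-box CACGTG, which reads the same on both strands and is bound by bHLH and bZIP factors, was in 6 of 23 windows of the flavonoid list (26.1%) and in 7.23% of the 20653 windows of genes tested, but also in 6 of 13 windows of the clock list (46.2%) and 6 of 16 of the endoplasmic reticulum chaperones (37.5%), lists with 0 and 2 members called higher. The evening element AAAATATCT, known from evening-phased clock genes and searched on both strands, was in 3 of 13 windows of the clock list (23.1%) and in 2.49% of all windows. The core of the sulphur-responsive element, GAGAC, was in 5 of 12 windows of the sulphur deficiency list (41.7%) and in 25.4% of all windows. It was in 3 of 23 windows of sulphate transport and assimilation (13%), in 6 of 31 of glucosinolate synthesis (19.4%) and in 8 of 16 of iron storage and shoot iron (50%). The windows of the pair of called members with the largest fold changes among those that hold the motif are printed 5′ to 3′ on the strand of the gene, with the match to either strand in capitals. A match is no more than these letters, and motifs were counted independently of each other.
ATSDI1 (chr5:19807854-19808103, minus strand): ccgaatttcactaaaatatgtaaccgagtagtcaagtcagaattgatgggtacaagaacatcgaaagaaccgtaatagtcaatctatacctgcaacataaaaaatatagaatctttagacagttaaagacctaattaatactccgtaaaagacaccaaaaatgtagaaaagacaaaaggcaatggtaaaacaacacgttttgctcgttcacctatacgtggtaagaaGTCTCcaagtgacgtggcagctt
BGLU28 (chr2:18346056-18346305, plus strand): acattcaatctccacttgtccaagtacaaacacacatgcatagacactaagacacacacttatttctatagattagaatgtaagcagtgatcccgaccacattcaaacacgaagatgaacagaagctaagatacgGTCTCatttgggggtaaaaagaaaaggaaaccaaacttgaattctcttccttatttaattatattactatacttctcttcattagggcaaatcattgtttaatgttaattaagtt
DFR (chr5:17166033-17166282, minus strand): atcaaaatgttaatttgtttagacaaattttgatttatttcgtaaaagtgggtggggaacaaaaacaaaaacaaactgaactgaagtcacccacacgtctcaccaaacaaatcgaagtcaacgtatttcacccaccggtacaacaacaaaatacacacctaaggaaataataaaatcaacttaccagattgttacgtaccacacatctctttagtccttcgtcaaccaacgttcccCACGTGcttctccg
UF3GT (chr5:21938397-21938646, minus strand): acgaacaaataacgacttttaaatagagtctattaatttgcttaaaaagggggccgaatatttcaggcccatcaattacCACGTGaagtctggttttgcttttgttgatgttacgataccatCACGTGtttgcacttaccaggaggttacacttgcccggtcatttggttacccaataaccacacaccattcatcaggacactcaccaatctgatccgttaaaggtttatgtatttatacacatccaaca
PRR5 (chr5:8358547-8358796, minus strand): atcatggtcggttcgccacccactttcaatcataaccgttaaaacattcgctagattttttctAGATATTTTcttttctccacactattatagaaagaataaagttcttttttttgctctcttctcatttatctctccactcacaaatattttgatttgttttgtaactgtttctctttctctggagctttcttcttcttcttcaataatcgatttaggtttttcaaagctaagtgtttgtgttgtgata
TOC1 (chr5:24674713-24674962, plus strand): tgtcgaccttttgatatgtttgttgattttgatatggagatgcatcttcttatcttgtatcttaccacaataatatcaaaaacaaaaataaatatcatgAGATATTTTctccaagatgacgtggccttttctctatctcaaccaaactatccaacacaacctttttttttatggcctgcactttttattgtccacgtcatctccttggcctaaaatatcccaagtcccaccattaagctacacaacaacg

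Sulphur-deficiency genes rose together. Of 12 such markers, 10 were called higher and 1 lower with volatiles in gp1-2, with a median log2 fold change of 2.07, and the number called higher was 10 in every alternative run, whereas the lower call was lost without exposed replicate 2 or 3 or control replicate 2. ATSDI1, known as a repressor of glucosinolate synthesis under sulphur shortage, had 22.02, 41.9 and 59.3 CPM with volatiles, against 0.992, 1.38 and 1.38 CPM in gp1-2 controls (5.03 ± 0.42, edgeR adjusted p 6.3e-07). LSU3, one of the small LSU proteins named for their response to low sulphur, had 34.2, 44.1 and 45.5 CPM with volatiles, against 2.65, 2.101 and 3.33 CPM in controls (3.93 ± 0.20). The exposed values of ATSDI1 spread more than those of LSU3, but no control reached them for either gene. LSU1 (AT3G49580) and LSU2 (AT5G24660) rose by 2.70 ± 0.19 and 2.53 ± 0.18. BGLU28 (AT2G44460), a beta-glucosidase assigned to glucosinolate breakdown, rose by 3.22 ± 0.50 at low levels, with 1.19, 2.84 and 3.16 CPM in exposed libraries, against 0.441, 0.111 and 0.212 CPM in controls. The summed markers were at 557.8 ± 73.7 CPM with volatiles, against 167.6 ± 16.1 CPM in controls (SD, n = 3 each). SULTR1;1 (AT4G08620), the root sulphate transporter most known for its rise under sulphur shortage, was at 2.23, 3.07 and 2.08 CPM with volatiles, against 2.26, 1.82 and 2.70 CPM in controls, with overlapping groups.

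Of 23 genes of sulphate transport and assimilation, 13 were called higher and 4 lower (median 0.38), with 2 lower without exposed replicate 1. The 3 APS reductases, the control point of the pathway, rose: APR1 (AT4G04610) had 459, 536 and 491 CPM with volatiles, against 125, 117 and 145 CPM in controls (1.94 ± 0.13, edgeR adjusted p 7.4e-08), APR2 (AT1G62180) changed by 1.85 ± 0.17 and APR3 (AT4G21990) by 1.53 ± 0.14. Of the ATP sulphurylases, APS3 (AT4G14680) rose by 1.35 ± 0.11 and APS1 (AT3G22890) by 0.49 ± 0.12, while APS4 (AT5G43780) was at -0.12 with overlapping groups. The serine acetyltransferases split, with SERAT3;2 (AT4G35640) rising by 2.18 ± 0.33 and SERAT2;1 (AT1G55920) and ATSERAT3;1 (AT2G17640) falling by 0.72 and 0.78 on the log2 scale.

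Glucosinolate genes of the methionine-derived branch rose. Of 31 genes of glucosinolate synthesis tested, 21 were called higher and 2 lower (median 0.44); 0 were lower without exposed replicate 2 or 3 or control replicate 2, and 1 without control replicate 1. The 8 genes of methionine chain elongation, its transport into plastids and the aliphatic core pathway were all called higher, by 0.44 to 1.59, and none of the 8 overlapped between the groups. CYP79F1 (AT1G16410), which makes aldoximes from elongated methionine, had 292, 259 and 255 CPM with volatiles, against 94.1, 81.04 and 92.2 CPM in gp1-2 controls (1.59 ± 0.12, edgeR adjusted p 2.2e-07). MAM1 (AT5G23010), the chain-elongating synthase, had 556, 517 and 489 CPM with volatiles, against 205, 194 and 218 CPM in controls (1.34 ± 0.13). GSTU20 (AT1G78370) had 926, 851 and 835 CPM with volatiles, against 234, 228 and 309.7 CPM in controls (1.76 ± 0.13). GSTU20, a glutathione transferase placed in the same pathway, also had no overlap. Their regulators MYB28 (AT5G61420) and MYB29 (AT5G07690) were not called (-0.12 and 0.42, edgeR adjusted p 0.428 and 0.128).

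In the indolic branch, 3 genes differed from wild type in their response. CYP79B2 (AT4G39950), which converts tryptophan to its aldoxime, had 415, 383 and 372 CPM with volatiles, against 192, 189 and 199 CPM in gp1-2 controls, a rise of 1.01 ± 0.13. In wild type it changed by -0.39, and the interaction was 1.40 ± 0.19 (edgeR adjusted p 8.8e-04). CYP79B3 (AT2G22330) had an interaction of 0.76 ± 0.15 (edgeR adjusted p 0.0124) and CYP83B1 (AT4G31500) of 0.58 ± 0.12 (edgeR adjusted p 0.0188). The last of these was lost without exposed replicate 2 (0.53) or control replicate 1 of gp1-2 (0.55). Of 7 camalexin genes, 3 were called higher and 1 lower (median 0.40); 5 were higher with the replicate block, and the lower call was lost without exposed replicate 2 or 3 or control replicate 1 or 2. CYP71A13 (AT2G30770), the camalexin enzyme that uses the same aldoxime, had 412, 354 and 286 CPM with volatiles, against 65.5, 72.8 and 95.1 CPM in controls (2.17 ± 0.19), and PAD3 (AT3G26830), the last camalexin enzyme, rose by 1.14 ± 0.10. CYP71A12 (AT2G30750), a close copy of CYP71A13, was at 0.12 with overlapping groups, and reads shared between the copies make both values uncertain.

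**Figure D2:**
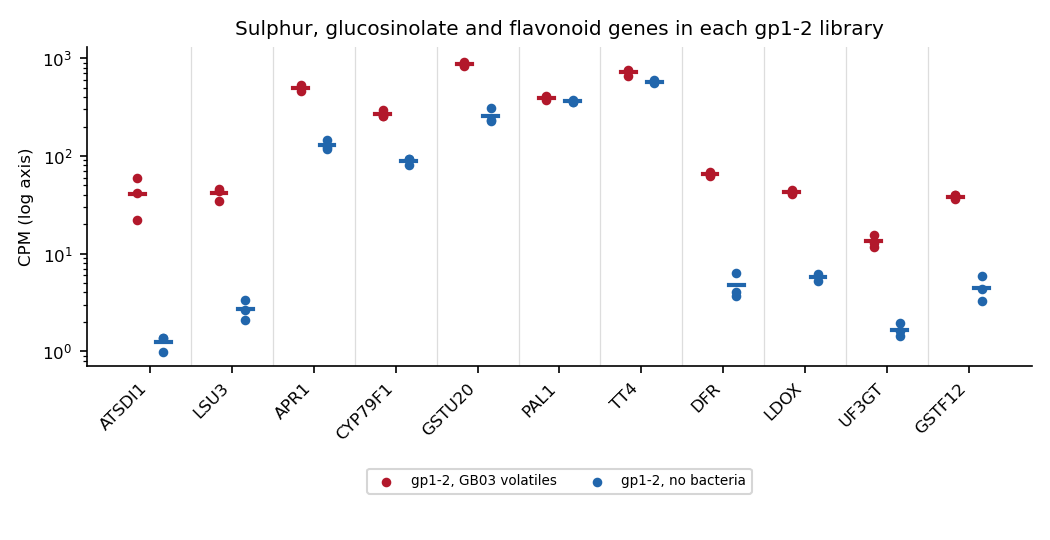
CPM on a log axis of sulphur, glucosinolate and flavonoid genes in the 6 gp1-2 libraries, exposed (left of each pair) and control (right); points are libraries and lines are group means (n = 3). DFR, LDOX, UF3GT and GSTF12 are far above their controls, whereas the 2 groups of PAL1, at the start of the pathway, overlap.

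Photosynthesis transcripts fell in gp1-2. Of 28 genes of the Calvin cycle and photorespiration, 26 were called lower and 0 higher, with a median log2 fold change of -0.86. Their summed level was 17687, 17635 and 19866 CPM with volatiles, against 30700, 32148 and 29431 CPM in gp1-2 controls; this is 1.84% of the scaled library with volatiles and 3.08% in controls. RCA, the activase of Rubisco, had 1310.0, 1299.5 and 1415 CPM with volatiles, against 3173, 3407 and 2809.6 CPM in controls (-1.22 ± 0.09, edgeR adjusted p 2.3e-07). CP12-2 (AT3G62410), a small protein that holds Calvin cycle enzymes inactive in the dark, fell most and had 55.3, 47.1 and 65.4 CPM with volatiles, against 247, 288 and 217 CPM in controls (-2.16 ± 0.15). The photorespiratory branch was lower throughout: all 9 of its genes from glycolate oxidase to glycerate kinase were called lower, by 0.52 to 1.68 on the log2 scale. AGT (AT2G13360), the serine-glyoxylate aminotransferase, had 294, 279.8 and 291 CPM with volatiles, against 961, 1002 and 808 CPM in controls (-1.68 ± 0.10). HPR (AT1G68010), hydroxypyruvate reductase, had 138, 131 and 149 CPM with volatiles, against 389, 416 and 324 CPM in controls (-1.43 ± 0.10). No exposed library of RCA, CP12-2, AGT or HPR reached a control value. TIM (AT2G21170) (triose phosphate isomerase) was at 0.04 and did not pass the test.

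Of 39 light-harvesting and photosystem genes, 28 were called lower and 2 higher (median -0.53; 1 higher without exposed replicate 1 or 2 or control replicate 1 or 2), and their sum was 27293, 25917 and 28558 CPM with volatiles, against 36947, 39063 and 38344 CPM in controls. The antenna gene LHB1B2 had 1199, 1127 and 1212 CPM with volatiles, against 2493, 2569.5 and 2433 CPM in controls (-1.08 ± 0.08, edgeR adjusted p 3.3e-07). PSBR (AT1G79040), a photosystem II subunit, fell by 1.04 and PETC (AT4G03280), the Rieske protein between the photosystems, fell by 0.81. CAB2 (AT1G29920) was the largest rise against the majority (0.57 ± 0.12). CAB1, CAB2 and CAB3, like the RBCS genes, are near-identical copies, so the division of reads among them is uncertain.

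The light-harvesting response differed between the genotypes. The interaction was negative for all 39 light-harvesting genes, from -1.37 to -0.13, and was called for 18 of them and for 8 of the 28 Calvin cycle and photorespiration genes, beside 1.32% of all genes tested with a called negative interaction. The light-harvesting median was 0.02 in wild type, where their sum was 7.53% of the scaled library with volatiles and 7.20% without; in gp1-2 the shares were 2.73% with volatiles and 3.81% without. LHB1B1 (AT2G34430) had 354, 311 and 306 CPM with volatiles, against 645, 699 and 619 CPM in gp1-2 controls, and in wild type 569, 635 and 613 CPM with volatiles, against 373, 529 and 524 CPM without (interaction -1.37 ± 0.17, edgeR adjusted p 5.5e-04). LHCA1 (AT3G54890) had an interaction of -0.82 ± 0.11 (edgeR adjusted p 8.8e-04) and PSAN (AT5G64040) of -0.76 ± 0.15. The Calvin cycle and photorespiration list also fell in wild type, where 18 members were called lower and 0 higher (median -0.445). Its sum there was 3.7% of the scaled library with volatiles and 4.85% without. Unlike most of that list, SBPASE (AT3G55800), a Calvin cycle phosphatase, fell by 0.72 in gp1-2 and was at 0.01 in wild type (interaction -0.73 ± 0.13, edgeR adjusted p 0.00567). The number of called light-harvesting interactions was 11 without gp1-2 control replicate 2 and 30 with the replicate block, and that of the Calvin list was 4 without gp1-2 control replicate 2 and 5 without gp1-2 control replicate 1 or exposed replicate 2.

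**Figure D3:**
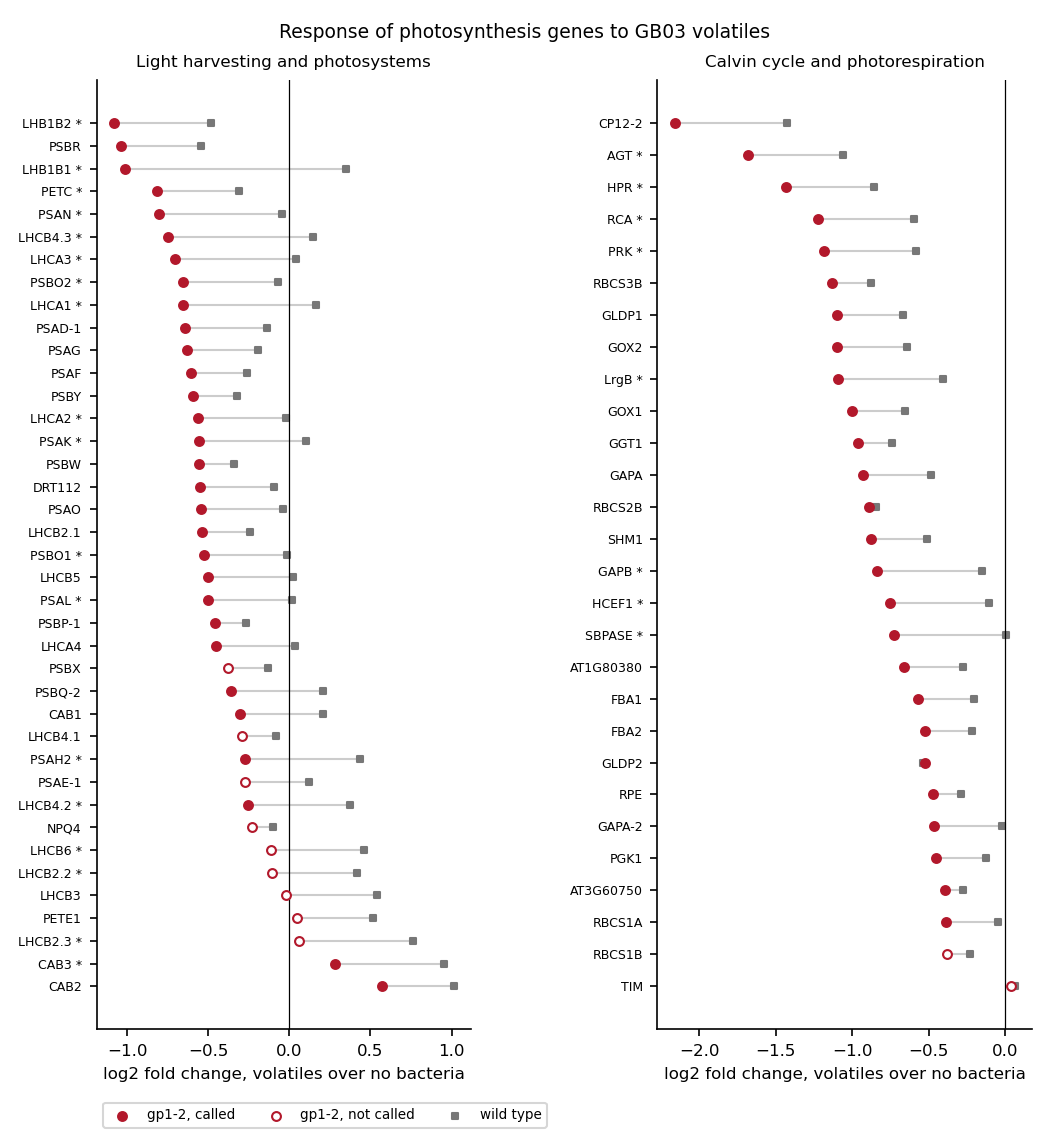
Log2 fold change with GB03 volatiles of each photosynthesis gene in gp1-2 (circles, filled where called) and in wild type (squares); asterisks mark genes whose interaction was called. The gp1-2 value lies left of the wild-type value for all 39 light-harvesting and photosystem genes.

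Genes that mark sugar shortage fell while 2 genes induced by sugar, APL3 and GPT2, rose. Of 21 sugar-starvation genes, 14 were called lower and 3 higher (median -0.70; 1 higher without exposed replicate 2 or control replicate 1 or 2), and of 7 sugar sensing and transport genes, 3 were higher and 3 lower. SEN1 (AT4G35770) had 8.61, 11.2 and 10.7 CPM with volatiles, against 33.3, 64.95 and 43.97 CPM in gp1-2 controls (-2.22 ± 0.27, edgeR adjusted p 1.7e-05). BT2 (AT3G48360), a BTB-domain protein repressed by sugar, had 134, 142 and 169 CPM with volatiles, against 401, 534 and 427 CPM in controls (-1.61 ± 0.16). TPS8 (AT1G70290), a class II trehalose-phosphate synthase, fell by 1.56. APL3 (AT4G39210), a starch-synthesis subunit induced by sugar, had 72.4, 73.5 and 71.6 CPM with volatiles, against 19.95, 15.4 and 19.2 CPM in controls (1.99 ± 0.10), and GPT2 (AT1G61800), the inducible glucose-phosphate carrier of plastids, had 179, 184 and 161 CPM, against 31.6, 33.8 and 42.97 CPM (2.27 ± 0.17). For APL3, GPT2 and SEN1 no exposed value fell within the range of the controls. DIN9 (AT1G67070), a phosphomannose isomerase, went against its list, with a rise of 1.68 ± 0.13 in gp1-2 and no called change in wild type (-0.11) (interaction 1.79 ± 0.23, edgeR adjusted p 7.1e-04).

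Core hypoxia genes rose in both genotypes. Of 18 tested in gp1-2, 15 were called higher and 0 lower (median 0.86), and in wild type 14 were called higher and 0 lower (median 1.07). By edgeR 0 had a called interaction (3 by unadjusted p under 0.05, 1 with DESeq2, 0 with limma-voom and 1 with the replicate block). ADH1 (AT1G77120), alcohol dehydrogenase, had 93.2, 88.6 and 106 CPM with volatiles, against 25.1, 21.7 and 29.4 CPM in controls (1.92 ± 0.12, edgeR adjusted p 6.0e-08). SUS4 (AT3G43190), a sucrose synthase, had 31.6, 36.98 and 33.2 CPM with volatiles, against 6.89, 4.81 and 9.15 CPM in controls (2.28 ± 0.24). HB1 (AT2G16060), a haemoglobin that scavenges nitric oxide, had 69.7, 65.9 and 87.7 CPM with volatiles, against 20.9, 25.1 and 25.3 CPM in controls (1.65 ± 0.12). No exposed library of ADH1, SUS4 or HB1 reached down to a control. PDC2 (AT5G54960), ERF73 (AT1G72360) and ETR2 (AT3G23150) were near 0 (-0.01, 0.01 and 0.03) with overlapping groups.

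Among mineral-nutrient genes, those of phosphate shortage leaned upward. Of 17 tested, 11 were called higher and 1 lower (median 0.96). PS2 (AT1G73010), a phosphatase strongly induced when phosphate is short, had 24.3, 27.6 and 26.3 CPM with volatiles, against 1.93, 1.71 and 6.14 CPM in gp1-2 controls (2.99 ± 0.33, edgeR adjusted p 7.3e-06). PAP17 (AT3G17790), an acid phosphatase, had 44.4, 37.9 and 47.7 CPM with volatiles, against 15.1, 15.04 and 17.7 CPM in controls (1.44 ± 0.15). The phosphate transporters PHT1;1 (AT5G43350) and PHT1;4 (AT2G38940) rose by 0.80 ± 0.10 and 0.96 ± 0.10, whereas SPX1 (AT5G20150), a sensor of phosphate status, was at 0.19 with overlapping groups. For nitrogen, 11 of 28 genes were called higher and 7 lower (median -0.05). The transporters NRT1.8 (AT4G21680), NRT2:1 (AT1G08090), AMT1;3 (AT3G24300) and NRT1.1 (AT1G12110) rose, by 2.52 ± 0.23, 1.03 ± 0.23, 1.00 ± 0.15 and 0.88 ± 0.12, while GDH1 (AT5G18170) (glutamate dehydrogenase) and GLU1 (AT5G04140), the glutamate synthase that recovers photorespiratory ammonium, fell by 1.06 and 0.98.

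Iron genes moved in both directions. Of 24 uptake and regulation genes tested, 6 were called higher and 1 lower. The lower one was BHLH101, at a log2 fold change of -3.42, which kept its call in all 14 alternatives (-4.49 to -2.94). The uptake genes were low: IRT1 (AT4G19690), the root iron transporter, had 1.24, 1.97 and 0.772 CPM with volatiles, against 0.110, 0.221 and 0 CPM in gp1-2 controls. IRT1 changed by 3.50 ± 0.82 (edgeR adjusted p 0.00421), and its call was lost with limma-voom (adjusted p 0.052). FRO2 (AT1G01580), the root ferric reductase, was at 0.643, 0.688 and 0.347 CPM with volatiles, against 0.716, 0.995 and 0.688 CPM in controls, with no called difference (-0.54). It rose in wild type, where it had 14.95, 3.75 and 8.34 CPM with volatiles, against 1.08, 0.603 and 1.34 CPM without (interaction -3.73 ± 0.78, edgeR adjusted p 0.018). The FRO2 interaction was lost without gp1-2 control replicate 2 (-3.55) or wild-type control replicate 2 (-3.45) and with limma-voom. Of 15 iron storage and shoot iron genes, 3 were called higher and 6 lower (median -0.35). Among them the ferric reductases fell most: FRO6 had 1.78, 0.872 and 1.08 CPM with volatiles, against 22.05, 29.6 and 13.8 CPM in controls (-4.14 ± 0.29), and FRO7, the chloroplast enzyme, had 1.53, 1.84 and 2.39 CPM, against 14.7, 16.2 and 8.20 CPM (-2.74 ± 0.26). No exposed value of FRO6 or FRO7 reached a control value. AT3G13610, for which RefSeq gives the synonym F6'H1 of the coumarin hydroxylase, rose by 1.37 ± 0.12, and the nicotianamine synthases NAS1 (AT5G04950) and NAS2 (AT5G56080) by 0.41 ± 0.10 and 0.98 ± 0.14.

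Of 30 salicylic acid genes tested, 11 were called higher and 7 lower (median 0.04). The marker genes of the pathway rose: PR1 changed by 1.22 ± 0.12 (edgeR adjusted p 2.3e-06), and BGL2, a beta-1,3-glucanase, had 1024, 941 and 982 CPM with volatiles, against 303, 385 and 402 CPM in gp1-2 controls (1.44 ± 0.13). PR5 (AT1G75040), a thaumatin-like protein, had 454, 404 and 505 CPM with volatiles, against 165, 179 and 218 CPM in controls (1.28 ± 0.13) and fell by 0.71 in wild type (interaction 1.99 ± 0.24, edgeR adjusted p 4.4e-04). Every exposed library was above every control for these 3 markers. FMO1 (AT1G19250), the enzyme that makes N-hydroxypipecolic acid, rose by 1.19 ± 0.14 and EDS5 (AT4G39030), which exports the salicylic acid precursor from plastids, by 0.81 ± 0.10. NPR4 (AT4G19660), a salicylic acid receptor, fell by 0.42. ACD6 (AT4G14400), an ankyrin protein that promotes this defence, had 174, 166 and 186 CPM with volatiles, against 356, 341 and 258 CPM in controls (-0.86 ± 0.18; interaction -1.81 ± 0.32, edgeR adjusted p 0.00715). EDS16 (AT1G74710), isochorismate synthase, and EDS1 (AT3G48090) did not pass the test (0.03 and -0.11).

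Of 20 jasmonate signalling and output genes tested, 10 were called higher and 5 lower (median 0.47, against -0.25 in wild type; 2 were lower without control replicate 2 and 3 without control replicate 1 or exposed replicate 3), and of 18 synthesis and catabolism genes, 7 were higher and 2 lower (median 0.36, against -0.26 in wild type). Among 10 JAZ repressors, 5 were called higher and 2 lower. JAZ7 (AT2G34600) had 8.27, 9.08 and 9.15 CPM with volatiles, against 1.76, 5.20 and 3.39 CPM in gp1-2 controls (1.36 ± 0.31), and in wild type 0.868, 0.658 and 0.129 CPM with volatiles, against 1.62, 3.35 and 3.44 CPM without (interaction 3.67 ± 0.60, edgeR adjusted p 0.00398). VSP1 (AT5G24780), an acid phosphatase of the wound response, had 16.7, 17.2 and 19.8 CPM with volatiles, against 6.23, 7.79 and 10.2 CPM in gp1-2 controls (interaction 1.97 ± 0.30, edgeR adjusted p 0.00231). JRG21, an oxidase that inactivates jasmonate, had 45.3, 31.3 and 27.8 CPM with volatiles, against 3.31, 2.93 and 6.67 CPM in controls (3.01 ± 0.25), and AT2G38240 had 106, 78.4 and 65.7 CPM, against 6.89, 6.85 and 18.5 CPM (2.95 ± 0.30). JRG21 had at most 0.608 CPM in wild type, so its interaction of 6.16 ± 1.18 (edgeR adjusted p 0.0109) rests on few wild-type counts; it was lost without wild-type control replicate 1 (5.84). LOX2 (AT3G45140), the chloroplast lipoxygenase that feeds jasmonate synthesis, rose by 1.22 ± 0.19, less than in wild type (interaction -1.07 ± 0.27, edgeR adjusted p 0.0472; the call was lost in 11 of 19 alternatives, at -1.39 to -0.89). Against the majority, ORA59 (AT1G06160), a transcription factor shared by jasmonate and ethylene responses, fell by 1.94.

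Of 26 early stress transcription factors tested, 0 were called higher and 16 lower, with a median of -1, beside -2.50 in wild type. ERF104 (AT5G61600), a target of a defence MAP kinase, had 37.96, 25.6 and 30.95 CPM with volatiles, against 209, 154 and 84.2 CPM in gp1-2 controls (-2.24 ± 0.42, edgeR adjusted p 8.3e-04). ERF6 (AT4G17490) had 51.6, 39.00 and 40.1 CPM with volatiles, against 120.4, 140.0 and 106 CPM in controls (-1.49 ± 0.17), and its fall was larger in wild type (-3.09; interaction 1.60 ± 0.25, edgeR adjusted p 0.00297). ERF2 (AT5G47220) had 50.8, 29.00 and 31.4 CPM with volatiles, against 151, 143 and 76.8 CPM in controls, and in wild type 1.67, 1.71 and 0.776 CPM with volatiles, against 78.95, 26.6 and 15.3 CPM without (interaction 3.13 ± 0.77, edgeR adjusted p 0.0427). The ERF2 interaction was lost in 11 of 19 alternatives, with values from 2.19 to 3.51. The controls spread widely, as in ERF104, and control replicate 3 was the lowest of them for ERF104 and ERF2. An interaction was called for 8 of the 26, all positive, where 1.48% of all genes tested had a called positive interaction; this number was 3 without exposed replicate 1 of gp1-2, 4 or 5 without 7 other single libraries, 5 with limma-voom and 14 with the replicate block. The count of 16 lower members was 10 without exposed replicate 3.

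**Figure D4:**
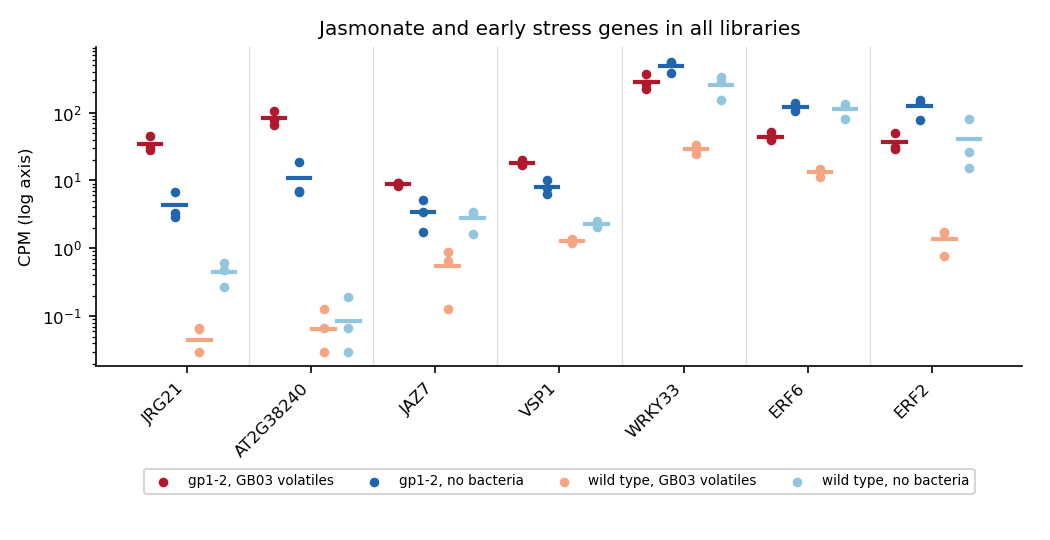
CPM on a log axis of jasmonate and early stress genes in all 12 libraries, in the order gp1-2 with volatiles, gp1-2 control, wild type with volatiles, wild-type control; points are libraries, lines are group means (n = 3), and values of 0 are drawn at 0.03 CPM. JRG21, AT2G38240, JAZ7 and VSP1 were higher with volatiles in gp1-2, and ERF6 and ERF2 were lowest in wild type with volatiles.

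Of 21 ethylene genes tested, 7 were called lower and 4 higher (median -0.21). EBF2 (AT5G25350), an F-box protein induced by ethylene that degrades EIN3, had 146, 122 and 103 CPM with volatiles, against 285, 341 and 293 CPM in gp1-2 controls (-1.31 ± 0.17, edgeR adjusted p 3.3e-05). The ethylene receptor ERS2 (AT1G04310) had 11.6, 9.54 and 7.26 CPM with volatiles, against 23.4, 24.3 and 17.1 CPM in controls (-1.20 ± 0.17). Of the ACC synthases, which form the ethylene precursor, ACS11 (AT4G08040) had 12.5, 15.2 and 17.8 CPM with volatiles, against 2.09, 2.16 and 3.23 CPM in controls (2.60 ± 0.21) and rose more than in wild type (interaction 1.72 ± 0.37, edgeR adjusted p 0.0208), an interaction lost in 4 of 19 alternatives (1.22 to 1.97). ACS2 (AT1G01480) rose by 1.64 ± 0.20. Controls and exposed libraries did not overlap for these 4 genes. The number of lower members was 4 without exposed replicate 3 or control replicate 2.

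Of 45 expansins and xyloglucan endotransglucosylases, which loosen cell walls, 16 were called higher and 6 lower (median 0.28). EXPA16 (AT3G55500) had 10.1, 13.3 and 14.3 CPM with volatiles, against 1.60, 1.60 and 2.65 CPM in gp1-2 controls (2.68 ± 0.28, edgeR adjusted p 4.6e-06), and EXPA8 (AT2G40610) had 4.06, 3.03 and 2.89 CPM, against 21.9, 16.4 and 13.8 CPM (-2.39 ± 0.24), in the other direction. XTR6 (AT4G25810) rose by 2.11 ± 0.39 and EXPA1 (AT1G69530) fell by 1.28. Of 30 cell cycle and replication genes, 14 were called higher and 0 lower, none by as much as 1 on the log2 scale (median 0.29), and the count was 8 without control replicate 2 and 9 without exposed replicate 1. PCNA1 (AT1G07370), the replication clamp, rose by 0.85 ± 0.15, and 5 of 6 subunits of the MCM helicase were called higher, by up to 0.51 for MCM3 (AT5G46280). The mitotic cyclin CYCB1;1 (AT4G37490) did not pass the test (0.25, edgeR adjusted p 0.145).

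Of 32 auxin genes tested, 10 were called higher and 6 lower (median 0.06); without exposed replicate 1 or control replicate 1, 6 were higher, and without exposed replicate 2 or control replicate 1, 3 were lower. GH3.3 (AT2G23170), which conjugates auxin to amino acids, had 54.4, 64.3 and 55.9 CPM with volatiles, against 19.7, 16.7 and 22.3 CPM in gp1-2 controls (1.57 ± 0.14), and DFL1 (AT5G54510), another member of that family, rose by 0.93 ± 0.10 in gp1-2 but not in wild type (-0.46; interaction 1.40 ± 0.14, edgeR adjusted p 2.2e-04). ATAUX2-11 (AT5G43700) and IAA7 (AT3G23050), repressors of the auxin response, fell by 0.80 and 0.62. For cytokinin, 7 of 18 genes were called higher and 2 lower (median 0.21), with 4 higher without control replicate 1 or 2 and 1 lower without exposed replicate 2 or control replicate 3. The degrading enzymes CKX3 (AT5G56970) and CKX5 (AT1G75450) rose by 1.66 ± 0.22 and 1.40 ± 0.20, the response regulator ARR15 (AT1G74890) rose by 1.50 ± 0.22, and the synthesis gene IPT5 (AT5G19040) fell by 1.26.

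Of 24 abscisic acid genes tested, 6 were called higher and 7 lower (median -0.03). RAB18 (AT5G66400), a dehydrin, had 8.51, 9.31 and 9.96 CPM with volatiles, against 51.7, 53.7 and 45.6 CPM in gp1-2 controls (-2.44 ± 0.10, edgeR adjusted p 1.9e-09). CYP707A1 (AT4G19230), which degrades abscisic acid, had 34.2, 33.9 and 33.1 CPM with volatiles, against 8.16, 9.23 and 9.15 CPM in controls (1.93 ± 0.11). Synthesis genes ABA1 (AT5G67030) and AAO3 (AT2G27150) fell by 0.98 and 0.72. HAI1 (AT5G59220), a phosphatase that restrains abscisic acid signalling, rose by 1.87 ± 0.13 in gp1-2 and was at 0.10 in wild type (interaction 1.77 ± 0.23, edgeR adjusted p 7.1e-04).

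Most clock genes fell. Of 13 clock genes, 9 were called lower and 0 higher (median -0.60). RVE1 (AT5G17300), a MYB-like factor that peaks around dawn, fell most, with 2.97, 1.79 and 2.28 CPM with volatiles, against 5.18, 6.41 and 5.03 CPM in gp1-2 controls (-1.24 ± 0.21, edgeR adjusted p 3.8e-04). PRR5 (AT5G24470), a repressor of the morning genes, had 33.2, 30.4 and 32.8 CPM with volatiles, against 84.05, 61.8 and 58.5 CPM in gp1-2 controls (-1.08 ± 0.14, edgeR adjusted p 4.3e-05). TOC1 (AT5G61380), the evening repressor, had 208, 217 and 189.5 CPM with volatiles, against 332, 354 and 284 CPM in controls (-0.66 ± 0.11), and ELF3 (AT2G25930), of the evening complex, fell by 0.77 and PRR7 (AT5G02810), a relative of PRR5, by 0.72. The morning genes CCA1 (AT2G46830) and LHY (AT1G01060) were low, at 1.56 to 2.08 and 1.20 to 2.43 CPM with volatiles, against 1.44 to 2.09 and 1.22 to 2.59 CPM in controls, and were not called. The labels give no hour of harvest, and its part in the result was not tested.

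Of 28 genes of plastid fatty acid synthesis and desaturation, 4 were called higher and 11 lower (median -0.06); 2 were higher without control replicate 1 or 2, and 6 were lower under upper-quartile normalization or without control replicate 1 and 7 without exposed replicate 1. FTM1 (AT1G43800), a stearoyl-ACP desaturase that is also a hypoxia gene, rose by 1.86 ± 0.21 and AT5G16230, another of the family, had 22.02, 22.2 and 23.3 CPM with volatiles, against 10.5, 11.4 and 12.8 CPM in gp1-2 controls (0.96 ± 0.11; interaction 1.04 ± 0.18, edgeR adjusted p 0.0062). FAD5 (AT3G15850), the plastid desaturase of palmitate, and FAD7 (AT3G11170), which makes trienoic fatty acids, fell by 0.57 and 0.50. SSI2 differed between the genotypes in its response (interaction -0.60 ± 0.15, edgeR adjusted p 0.0484) and rose in wild type (0.52), but the interaction was lost in 13 of 19 alternatives (-0.69 to -0.50). Of 22 wax, cutin and suberin genes, 1 was called higher and 4 lower; 0 were higher without exposed replicate 2 or 3 or control replicate 1 or 2, and 2 were lower without exposed replicate 1 or 3 or control replicate 2 and under RLE or upper-quartile normalization.

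Chlorophyll metabolism had 8 of 20 genes lower and 1 higher, led by NYC1 (AT4G13250), which starts chlorophyll b breakdown (-1.19 ± 0.13); with the replicate block 13 were lower. Of 11 mitochondrial stress genes, 5 were higher, DIC3 and the alternative NAD(P)H dehydrogenase NDB2 (AT4G05020) (1.23 ± 0.11) among them, and 1 was lower (lost without exposed replicate 2 or 3 or control replicate 1 or 2), while AOX1A (AT3G22370) was at 0.07 with overlapping groups. Of 16 senescence and autophagy genes, 5 were higher and 4 lower, with 3 higher without exposed replicate 1 or control replicate 2: NAP, a senescence regulator, had 2.38, 1.28 and 0.965 CPM with volatiles, against 13.8, 15.2 and 11.7 CPM in gp1-2 controls (-3.16 ± 0.37), and SAG13 (AT2G29350) rose by 1.77 ± 0.15. Of 13 heat shock genes, 3 were higher and 2 lower, with HSP17.4 (AT3G46230) at an interaction of 2.53 ± 0.41 (edgeR adjusted p 0.00398). Of 16 endoplasmic reticulum chaperone genes, 2 were higher (1 without exposed replicate 2 or 3 or control replicate 1 or 2) and 3 lower (1 without exposed replicate 3, 5 with the replicate block), the largest change being the fall of BIP3 (AT1G09080) by 0.58. HKT1 (AT4G10310), a sodium transporter reported to respond to GB03 in earlier work on Arabidopsis, had 2.47, 1.70 and 2.05 CPM with volatiles, against 6.61, 7.68 and 8.20 CPM in controls (-1.86 ± 0.19, edgeR adjusted p 3.6e-06).

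The response of gp1-2 differed from that of wild type for 580 genes (2.80% of those tested), 306 with a positive and 274 with a negative interaction (3141 by unadjusted p under 0.05). The number was 1038 with the replicate block and 941 with DESeq2, and it was 329 without gp1-2 control replicate 1, 343 without exposed replicate 2 of gp1-2, 342 without wild-type control replicate 2, 346 without gp1-2 control replicate 2 and 354 without exposed replicate 1 of gp1-2. Of these, 395 were also called in the gp1-2 response: 167 were not called in wild type, 150 were called in the same direction and 78 in the opposite direction. The largest positive interactions under the naming rule were those of JRG21, JAZ7, AT1G24147, YLS9 (AT2G35980), AT5G24200 and NAC019 (AT1G52890). AT1G24147 fell in gp1-2 (-0.845 ± 0.143) and fell more in wild type (-4.51), where it had at most 0.323 CPM with volatiles. YLS9 rose in gp1-2 (1.98 ± 0.21) and had at most 2.39 CPM in wild type. AT5G24200, described as a hydrolase, had 224, 224 and 201 CPM with volatiles, against 102, 87.7 and 98.4 CPM in gp1-2 controls (1.17 ± 0.10), and at most 0.338 CPM in wild type; its interaction was lost in 4 of 19 alternatives (2.81 to 3.86). NAC019, a transcription factor of the stress response, had overlapping groups in gp1-2, at 33.9, 21.7 and 19.7 CPM with volatiles, against 19.95, 15.3 and 14.9 CPM in controls. Its rise of 0.58 ± 0.18 was lost without exposed replicate 1 (0.31) or control replicate 2 (0.52) or 3 (0.51), while its interaction of 3.24 ± 0.48 (edgeR adjusted p 0.00217) came with a fall in wild type (-2.66). The largest negative ones were those of AT3G28510, CNGC11 (AT2G46440), DTX1 (AT2G04040), MAKR6 (AT5G52900), ACD6 and BEE1 (AT1G18400). CNGC11 had 0.338, 0.268 and 0.287 CPM in wild-type controls, at most 5 reads in a library. Its interaction therefore rests on few wild-type counts. AT3G28510 had 173, 157 and 149.7 CPM with volatiles, against 75.3, 75.6 and 73.4 CPM in gp1-2 controls, and in wild type 1.94, 3.03 and 2.97 CPM with volatiles, against 0.0676, 0 and 0 CPM without. Its wild-type controls held 1 read in all, so its interaction (-5.28 ± 0.56) depends on how the fit treats low counts, and it ran from -7.46 to -4.50 over the alternatives. DTX1, a MATE efflux protein, had 20.3, 18.4 and 16.6 CPM with volatiles, against 38.4, 35.99 and 37.2 CPM in gp1-2 controls, and in wild type 7.28, 6.05 and 5.69 CPM with volatiles, against 2.30, 1.68 and 1.72 CPM without (interaction -2.74 ± 0.20, edgeR adjusted p 6.8e-06). MAKR6 fell by 0.48 in gp1-2 and rose by 1.35 in wild type (interaction -1.83 ± 0.20). DTX1 and CNGC11 have close copies in the genome, and shared reads make their values uncertain.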

How the data were processed

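RNA from whole Arabidopsis thaliana seedlings was sequenced in 12 libraries, 3 per combination of 2 genotypes and 2 treatments, and the labels call them biological replicates. The authors deposited raw read counts per gene for 33602 genes; the submitters' processing notes name Trimmomatic 0.36, HISAT2 2.1.0, HTSeq 0.9.1 and TAIR10, and the annotation release, the library kit and the use of strand are not given in the sources used here. Reads of overlapping genes, antisense partners and near-identical copies may therefore be assigned uncertainly.

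From these counts, TMM normalization and edgeR's quasi-likelihood test (edgeR 4.0.16, R 4.3.3) with 1 coefficient per group were fitted to all 12 libraries. Genes that passed filterByExpr were tested, p-values were adjusted by Benjamini-Hochberg over all 20736, and genes under 0.05 were called. CPM are scaled to the TMM-adjusted library size, and the interaction is the gp1-2 response minus the wild-type response. The principal component analysis used log2 CPM. RefSeq (TAIR10.1) gave symbols and the 250 bases before each gene start.

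Alternatives were RLE and upper-quartile scaling, no filter, DESeq2 1.42.0, limma-voom (limma 3.58.1), counts thinned to 11158051 per library, gp1-2 libraries alone, a replicate block, a minimum log2 fold change of 1 and each library left out in turn. The scripts were tested on simulated data.

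The 35 gene lists (751 different genes, 714 tested) and the comparison itself were chosen with earlier results of these data known. Genes were picked by rule: the 12 largest rises and 12 largest falls among called genes with at least 5 CPM on average and no overlap of groups, the 6 largest interactions of each sign, the 6 largest CPM differences of each sign, and in each list 4 called members with the largest change plus 2 against the majority. Some of the list members so picked are not named in the text. Other members were named for their role, with values known.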

Additional observations from a re-analysis of the deposited data

Results flagged for a closer look

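Each value below is an interaction on the log2 scale, gp1-2 response minus wild-type response to volatiles, whose own test passed (edgeR adjusted p under 0.05, 3 libraries in each of the 4 groups). They were singled out because the 2 genotypes differed in their response, and the cause was not tested. Among jasmonate, ethylene and early stress genes, the value was positive for JRG21 (6.16), JAZ7 (3.67), VSP1 (1.97), ERF2 (3.13), ERF6 (1.60), ACS11 (1.72) and NAC019 (3.24) and negative for LOX2 (-1.07). Among defence and indole genes it was positive for PR5 (1.99), YLS9 (3.50), CYP79B2 (1.40), CYP79B3 (0.76) and CYP83B1 (0.58) and negative for CYP71A12 (-1.96), ACD6 (-1.81) and CNGC11 (-3.18). Those from the photosynthesis lists were all negative, with LHB1B1 (-1.37), LHCA1 (-0.82), PSAN (-0.76), LHB1B2 (-0.60), PETC (-0.51), SBPASE (-0.73), RCA (-0.63), AGT (-0.62) and HPR (-0.58). FBA5 (-0.73) and CA1 (-0.69), which are in neither photosynthesis list, were also negative. Flavonoid genes were negative too, with LDOX (-1.60), DFR (-1.26), AT4G14090 (-1.23) and TT7 (-0.73). Positive values among abscisic acid, auxin, sugar, heat and desaturase genes were those of HAI1 (1.77), RAB18 (0.87), DFL1 (1.40), DIN9 (1.79), HSP17.4 (2.53) and AT5G16230 (1.04), while SSI2 (-0.60) was negative. For iron and nitrogen the values were FRO2 (-3.73), FRO6 (-1.57) and GDH1 (-0.62). The remaining values were AT1G24147 (3.67) and AT5G24200 (3.50) on the positive side and GASA6 (-1.03), AT1G80130 (-1.34), BEE1 (-1.75), MAKR6 (-1.83), DTX1 (-2.74) and AT3G28510 (-5.28) on the negative side. The wild-type controls of AT3G28510 held 1 read in all, and its value ran from -7.46 to -4.50 over the alternatives. Those of CNGC11 held at most 5 reads in a library. AT1G24147 fell in both genotypes, at -0.845 in gp1-2 and -4.51 in wild type. The interactions of SSI2, DFR, LOX2, ERF2, AT1G80130, FRO6, FBA5, GASA6, HPR, PETC and CA1 were each lost in 7 to 13 of 19 alternatives. Those of ACS11, AT5G24200, AGT, FRO2, CYP83B1, GDH1, JRG21 and RCA were lost in 1 to 4 of 19.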

How the results depend on the processing

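The number of genes called in the gp1-2 response ran from 4893 to 6609 when 1 library was left out (2076 to 3000 higher, 2809 to 3609 lower) and stayed within 1.5 times of 6707 otherwise, except that 1228 genes (602 higher, 626 lower) also changed by at least 1 on the log2 scale. The interaction count of 580 ran from 329 to 615 with 1 library left out (189 to 348 higher, 132 to 267 lower) and was 941 with DESeq2 (544 higher), 1038 with the replicate block (518 higher, 520 lower) and 247 with a minimum log2 change of 1 (173 higher, 74 lower); the cause was not tested beyond what the smaller number of libraries or the stricter rule fixes. Upper-quartile scaling gave 3657 higher and 3117 lower calls in gp1-2 and RLE 3237 and 3469, with the median of all genes at 0.04 and 0.01. Thinning every library to the smallest total left 5956 calls. Of the named genes' fold changes in gp1-2, 124 values over 33 genes lost their call in an alternative, and of their interactions 128 values over 20 genes; no value of a called gene changed sign. Replicate numbers are shared between groups, but deviations of same-numbered gp1-2 libraries correlated at 0.05, 0.11 and 0.19. Over all 18 same-numbered pairs the range was -0.03 to 0.25. Between gp1-2 and wild-type controls the correlations were 0.22, 0.11 and 0.17, the 1 of 6 pairs of groups with all 3 over 0.1. Different-numbered libraries of the 2 gp1-2 groups correlated at -0.14 to 0.04. The main fit did not take the numbers as pairs, and whether they mark shared batches was not tested. Each gp1-2 library correlated best with its own number in the other group, a hint from the data only, and the replicate block raised the gp1-2 calls to 7775 (3681 higher, 4094 lower). With 3 libraries a group, small differences between the genotypes may go uncalled.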
